A study of Mus musculus with 9 samples.

Results

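The Hoxa genes described here were Hoxa2, Hoxa3, Hoxa4, Hoxa5, Hoxa6, Hoxa7, Hoxa9, Hoxa10 and Hoxa11, 9 of the 55274 genes listed in each library, taken by their symbols and given in their order along the cluster. Bone marrow cells of mice had been given the fusion NUP98-NSD1, the mutant NRASG12D or both (NUP98-NSD1+NRASG12D), and each group had 3 RNA-seq libraries. The G12D substitution keeps NRAS in the signalling state, and NUP98-NSD1 is a leukemia fusion of a nuclear pore protein with a methyltransferase for lysine 36 of histone H3. All cells came from C57BL6/J marrow collected 4 days after 5-fluorouracil at 150 mg/kg and stimulated for 48 h with human IL-6, murine IL-3 and murine SCF. NUP98-NSD1 was carried by the MSCV-IRES-GFP vector and NRASG12D by the MSCV-IRES-BFP vector, so that both were driven by the retroviral promoter in whichever cell was transduced, and the cells were sorted by fluorochrome and expanded. Untransduced cells and cells with an empty vector were not among the 9 libraries, and the study describes its NRASG12D cultures as mostly mast cells. Nothing in the labels gives separate donors or cultures for the replicates, so p-values measure the spread between these libraries, which may be technical.

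Hox genes encode transcription factors with a DNA-binding homeodomain, and their order along the chromosome follows the order in which they are used along the body axis of the embryo. In blood formation the genes from Hoxa5 to Hoxa10 are active in stem and early progenitor cells and are switched off as cells mature. Hoxa9 with its cofactor Meis1 is a central pair in myeloid leukemias that carry KMT2A or NUP98 fusions, and Polycomb complexes and the KMT2A (MLL) complex are the repressors and activators best known to act on this locus.

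The 9 genes lay on the minus strand of mouse chromosome 6 within chr6:52162417-52245810 (GRCm38), a stretch of 83.4 kb with Hoxa2 at its low end and Hoxa11 at its high end. In the same coordinates Hoxa7 (ENSMUSG00000038236.8) spanned chr6:52214491-52221854, Hoxa9 (ENSMUSG00000038227.15) chr6:52223100-52231089 and Hoxa10 (ENSMUSG00000000938.11) chr6:52231197-52240854. Hoxa5 spanned chr6:52201754-52204587 and Hoxa6 chr6:52206288-52208722, and both had 1 annotated transcript with no exon shared with another gene. Exons of other genes covered part of several members: on the opposite strand 25.4% of the exonic bases of Hoxa3, 16.0% of those of Hoxa4, 20.4% of those of Hoxa7 and 35.0% of those of Hoxa11. Whether reads were counted by strand is not given in the sources used here, so signal in those bases cannot be told apart from the antisense gene.

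The promoters of Hoxa5, Hoxa7, Hoxa9 and Hoxa10 are shown because the strongest differences below were in these genes and because they differ in CpG content, the dinucleotide read by the CXXC domain of KMT2A. Of the 9 members, 8 were found in the RefSeq promoter table for GRCm38.p6, with 9 start sites, and Hoxa4 was not matched. The sequences run 5′ to 3′ on the minus strand and end at the base before the RefSeq start, with each CpG in capitals. Hoxa5 covers chr6:52204588-52204837, Hoxa9 chr6:52227371-52227620, the downstream start of Hoxa10 chr6:52234940-52235189 and its upstream start chr6:52240855-52241104, each of 250 bases. For Hoxa7 only the 60 bases next to the start, chr6:52218574-52218633, are shown, since an annotated exon of a longer Hoxa7 transcript lies before them.
Hoxa5: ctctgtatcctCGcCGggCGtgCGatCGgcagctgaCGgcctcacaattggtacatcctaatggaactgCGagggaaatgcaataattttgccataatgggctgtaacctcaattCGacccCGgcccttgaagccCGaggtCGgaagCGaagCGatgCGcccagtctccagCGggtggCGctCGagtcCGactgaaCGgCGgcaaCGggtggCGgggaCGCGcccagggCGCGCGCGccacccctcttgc
Hoxa7: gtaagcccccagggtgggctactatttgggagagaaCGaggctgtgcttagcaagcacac
Hoxa9: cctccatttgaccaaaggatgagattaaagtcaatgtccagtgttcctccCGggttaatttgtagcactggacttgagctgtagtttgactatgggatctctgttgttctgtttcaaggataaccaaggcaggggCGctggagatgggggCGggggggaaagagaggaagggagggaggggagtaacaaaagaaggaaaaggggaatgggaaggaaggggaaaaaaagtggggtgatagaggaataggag
Hoxa10 downstream start: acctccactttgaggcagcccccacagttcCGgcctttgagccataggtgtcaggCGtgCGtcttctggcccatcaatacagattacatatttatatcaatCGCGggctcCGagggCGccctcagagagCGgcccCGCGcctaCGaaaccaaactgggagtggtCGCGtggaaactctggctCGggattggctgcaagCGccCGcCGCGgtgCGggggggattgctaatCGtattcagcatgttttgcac
Hoxa10 upstream start: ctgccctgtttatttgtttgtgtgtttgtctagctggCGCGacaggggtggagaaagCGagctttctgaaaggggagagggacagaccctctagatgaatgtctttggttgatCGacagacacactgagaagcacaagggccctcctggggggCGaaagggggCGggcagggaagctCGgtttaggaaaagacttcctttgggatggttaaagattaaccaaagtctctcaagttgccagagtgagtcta

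Over the full 250 bases, the Hoxa5 promoter held 28 CpG and the downstream Hoxa10 promoter 20, whereas the Hoxa9 promoter held 3 and the upstream Hoxa10 promoter 7. The median over 32851 mouse promoters in the table was 6. Hoxa9, the member with the highest level in the fusion libraries, thus had the fewest CpG of these sequences, and 29.03% of all promoters had fewer. The GC content of the 9 member promoters ranged from 46.4% to 65.2%, beside a median of 52.4% over all promoters. Both strands were searched for 5 motifs, and 0 pairs of matches of different motifs overlapped in the member promoters. The homeodomain core TAATTA was in 0 of the 9 member promoters and in 4.84% of all promoters. The HOX and PBX composite TGATTNAT was in 1, that of Hoxa2, against 2.83% of all, and the MEIS core TGACAG in 2, those of Hoxa2 and Hoxa3, against 15.9% of all. The TATA motif TATAAA was in 1 member promoter, beginning 160 bases before the downstream start of Hoxa10, against 12.4% of all, and CCAAT was in 4 against 33.9% of all. These matches describe letters in the windows only.

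Levels are given as FPKM, fragment numbers scaled to transcript length and to the mapped fragments of the library, which allows genes to be compared. The depth estimated from the smallest steps of the values ranged from 23500000 to 37000000 fragments per library. A library at this depth gives 3 fragments of Hoxa9 at 0.0264 to 0.0415 FPKM and 3 fragments of the short Hoxa6 at 0.112 to 0.176 FPKM, and these limits cover counting error only. As a check of the labels, Nras lay between 348 and 479 FPKM with NRASG12D alone, between 47.7 and 51.2 FPKM with the fusion alone, and between 245 and 701 FPKM with both, where replicate 3 was the highest. Nup98 was 9.12 to 11.1, 18.2 to 19.0 and 11.9 to 20.2 FPKM in the same order, and Nsd1 overlapped between all groups at 9.98 to 16.2 FPKM.

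In both groups with the fusion, Hoxa7, Hoxa9 and Hoxa10 were abundant, Hoxa5, Hoxa6 and Hoxa3 were low, and Hoxa2, Hoxa4 and, in 5 of the 6 libraries, Hoxa11 were close to the limit of detection. In the NRASG12D libraries all 9 genes were at that limit. The 9 genes summed to 0.195, 0.202 and 0.226 FPKM in the NRASG12D libraries, to 107, 97.6 and 65.1 FPKM in the NUP98-NSD1 libraries and to 116, 89.1 and 166 FPKM in the NUP98-NSD1+NRASG12D libraries. Every fusion library was far above every NRASG12D library, while the 2 fusion groups overlapped. In bulk RNA a smaller share of cells that use the gene and less RNA per cell cannot be told apart.

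**Figure D1:**
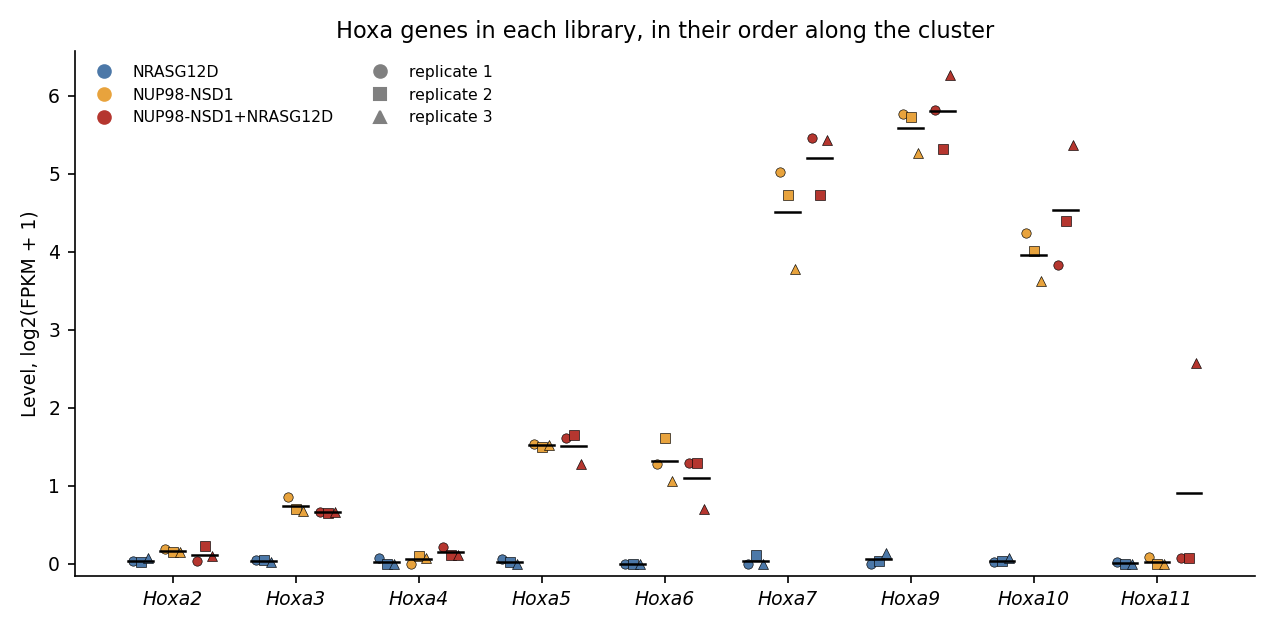
Levels of the 9 Hoxa genes in each library as log2(FPKM + 1), in their order along the cluster, with 3 points per group marked by replicate and black lines at the group means. Hoxa7, Hoxa9 and Hoxa10 stand apart in both fusion groups, the NRASG12D points lie at the bottom for all 9 genes, and 1 NUP98-NSD1+NRASG12D library is alone in its Hoxa11 level of 4.94 FPKM.

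Hoxa9, the member most often tied to leukemic self-renewal, was listed at 0, 0.0253 and 0.101 FPKM in the NRASG12D libraries. It measured 53.5, 52.2 and 37.4 FPKM in the NUP98-NSD1 libraries and 55.6, 39.0 and 75.8 FPKM in the NUP98-NSD1+NRASG12D libraries. All 6 fusion libraries lay above all NRASG12D libraries, and the lowest value of each fusion group was close to the other's. Within a library, Hoxa9 exceeded 77.1% to 87.5% of the 13493 tested genes in the fusion groups.

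Hoxa7, its neighbour on the Hoxa6 side and a gene that is often active together with Hoxa9 in KMT2A-rearranged leukemia, was at 0 in 2 of the NRASG12D libraries, counting levels of 1e-06 FPKM or less as 0, and at 0.0833 FPKM in replicate 2. It measured 31.6, 25.5 and 12.7 FPKM in NUP98-NSD1 and 43.0, 25.5 and 42.3 FPKM in NUP98-NSD1+NRASG12D. The NUP98-NSD1 libraries spread widely, with replicate 3 lowest, and the fusion groups met at 25.5 FPKM in replicate 2 of each.

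Hoxa10, the neighbour of Hoxa9 on the other side and a regulator of myeloid progenitor growth, was 0.0165, 0.0224 and 0.0507 FPKM in NRASG12D. It measured 17.9, 15.2 and 11.3 FPKM in NUP98-NSD1 and 13.3, 20.1 and 40.4 FPKM in NUP98-NSD1+NRASG12D. Replicate 3 of the double-transduced cells was more than any other library, and the remaining 5 fusion libraries intermingled.

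Hoxa5, a gene of early myeloid and erythroid progenitors, was 0.0460, 0.0156 and 0 FPKM in NRASG12D, values that correspond to 2, 1 and 0 fragments. It measured 1.90, 1.84 and 1.86 FPKM in NUP98-NSD1 and 2.06, 2.13 and 1.43 FPKM in NUP98-NSD1+NRASG12D, from 59 to 105 fragments a library. Its spread within NUP98-NSD1 was the smallest of the members, at a coefficient of variation of 1.64%, beside 41.5% for Hoxa7, 18.8% for Hoxa9 and 22.3% for Hoxa10.

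Hoxa6 was listed at 0 in all 3 NRASG12D libraries. It measured 1.43, 2.05 and 1.10 FPKM in NUP98-NSD1 and 1.45, 1.46 and 0.632 FPKM in NUP98-NSD1+NRASG12D, from 11 to 41 fragments. Against a floor of 3 fragments per NRASG12D library the means were at least 10.1-fold higher in NUP98-NSD1 and at least 7.82-fold higher in NUP98-NSD1+NRASG12D.

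Hoxa3 was 0.0326, 0.0390 and 0.0220 FPKM in NRASG12D, 0.807, 0.637 and 0.604 FPKM in NUP98-NSD1 and 0.593, 0.575 and 0.590 FPKM in NUP98-NSD1+NRASG12D. Its annotated span contains Hoxa4, Hoxa5 and Hoxa6, and part of its exons is shared with antisense genes, so its level is uncertain. Hoxa2 and Hoxa4 rested on at most 7 fragments in any library. Hoxa2 was 0.0166 to 0.0523 FPKM in NRASG12D and 0.111 to 0.140 in NUP98-NSD1, while NUP98-NSD1+NRASG12D had 0.0221 to 0.169, and Hoxa4 was 0 to 0.0550, 0 to 0.0752 and 0.0814 to 0.164 FPKM.

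Hoxa11, the member nearest the 5′ end of the cluster and best known from limb and reproductive tract development, differed in a single library. It was 0.0204 FPKM or less in NRASG12D and 0.0666 FPKM or less in NUP98-NSD1. In NUP98-NSD1+NRASG12D it was 0.0522, 0.0550 and 4.94 FPKM, so that the group mean of 1.68 ± 2.82 FPKM (SD, n = 3) was that of replicate 3. In that library Nras was 701 FPKM, far above the 47.7 to 51.2 FPKM of the NUP98-NSD1 libraries. The antisense gene Hoxa11os, which shares exonic bases with Hoxa11, was also high in that library alone, at 2.98 FPKM against 0.209 FPKM or less in the other 8.

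For the comparison of NUP98-NSD1 with NRASG12D, levels were put on the log2(FPKM + 1) scale, which understates changes of low genes, and only genes that reached 1 FPKM in 3 or more of the 9 libraries entered the test. Hoxa5, Hoxa6, Hoxa7, Hoxa9 and Hoxa10 passed this filter, and they did so only through the fusion libraries in which they are high, so the count that follows describes them and carries no weight of its own. All 5 were higher in NUP98-NSD1 at an adjusted p under 0.05 (limma, Benjamini-Hochberg over all tested genes), where 42.2% of all tested genes were called higher. In all 5 every NUP98-NSD1 library was above every NRASG12D library, as in 50.7% of tested genes. The differences on the log2(FPKM + 1) scale were 5.53 ± 0.15 (SE, n = 3 libraries each) for Hoxa9 with an adjusted p of 7.0e-06 by limma, 4.47 ± 0.30 for Hoxa7 with 0.00017 and 3.92 ± 0.17 for Hoxa10 with 3.6e-05. Those of the 2 low genes were smaller, at 1.49 ± 0.12 for Hoxa5 with an adjusted p of 0.00032 by limma and 1.32 ± 0.17 for Hoxa6 with 0.0015. The median difference of the 5 genes was 3.92, beside 0.27 over all tested genes.

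The shift of all genes depends on scaling. Of the 7036 genes called in this comparison 80.9% were higher on the FPKM as deposited, and 43.2% of 6066 after quantile normalization, while the 5 Hoxa genes were called higher under both, at a median of 3.48 after quantile normalization.

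NUP98-NSD1+NRASG12D cells were compared with the same NRASG12D libraries, so the 2 comparisons are not independent. The same 5 genes were higher, where 24.2% of all tested genes were called higher and 38.7% had groups that did not overlap in that direction. The differences were 5.74 ± 0.25 for Hoxa9 with an adjusted p of 3.6e-05 by limma, 5.17 ± 0.23 for Hoxa7 with 4.2e-05 and 4.49 ± 0.37 for Hoxa10 with 0.00024. Hoxa5 differed by 1.48 ± 0.17 with an adjusted p of 0.00090 by limma and Hoxa6 by 1.10 ± 0.21 with 0.0067. The median of the 5 was 4.49, beside 0.23 over all tested genes. Of 5173 genes called, 63.1% were higher, and 41.3% of 5219 after quantile normalization.

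The other 4 members did not pass the filter. For them an exact permutation test was used, two-sided, which cannot go below p = 0.1 with 3 libraries against 3. For NUP98-NSD1 against NRASG12D the groups did not overlap for Hoxa3, with a difference of 0.70 on the log2(FPKM + 1) scale, and for Hoxa2, with 0.12, each at the smallest exact p of 0.1. The exact p was 0.4 for Hoxa4 and 0.5 for Hoxa11. For NUP98-NSD1+NRASG12D against NRASG12D it was 0.1 for Hoxa3, Hoxa4 and Hoxa11, with differences of 0.62, 0.12 and 0.90, and 0.3 for Hoxa2. When the filter was dropped and limma fitted to all detected genes, Hoxa3 had adjusted p of 0.014 and 0.016 in the 2 comparisons and Hoxa2 0.043 and 0.41.

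Adding NRASG12D to the fusion was addressed by NUP98-NSD1+NRASG12D against NUP98-NSD1. None of the 5 tested members was called by limma in either direction, where 8.61% of all tested genes were called, and 0 of the 5 had an unadjusted p under 0.05. The difference was 0.70 ± 0.36 for Hoxa7 with a 95% interval from -0.16 to 1.56 and an adjusted p of 0.31 by limma. For Hoxa10 it was 0.57 ± 0.39, from -0.35 to 1.5, with an adjusted p of 0.45 by limma. For Hoxa9 it was 0.22 ± 0.27, from -0.43 to 0.86, with 0.73. Hoxa5 gave -0.0057 ± 0.17, from -0.41 to 0.40, and Hoxa6 -0.22 ± 0.24, from -0.78 to 0.34, with adjusted p of 0.99 and 0.67 by limma. The intervals of Hoxa7, Hoxa9 and Hoxa10 thus reach to differences of 0.86 or more, and their groups overlapped, with exact permutation p of 0.2, 0.4 and 0.4.

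**Figure D2:**
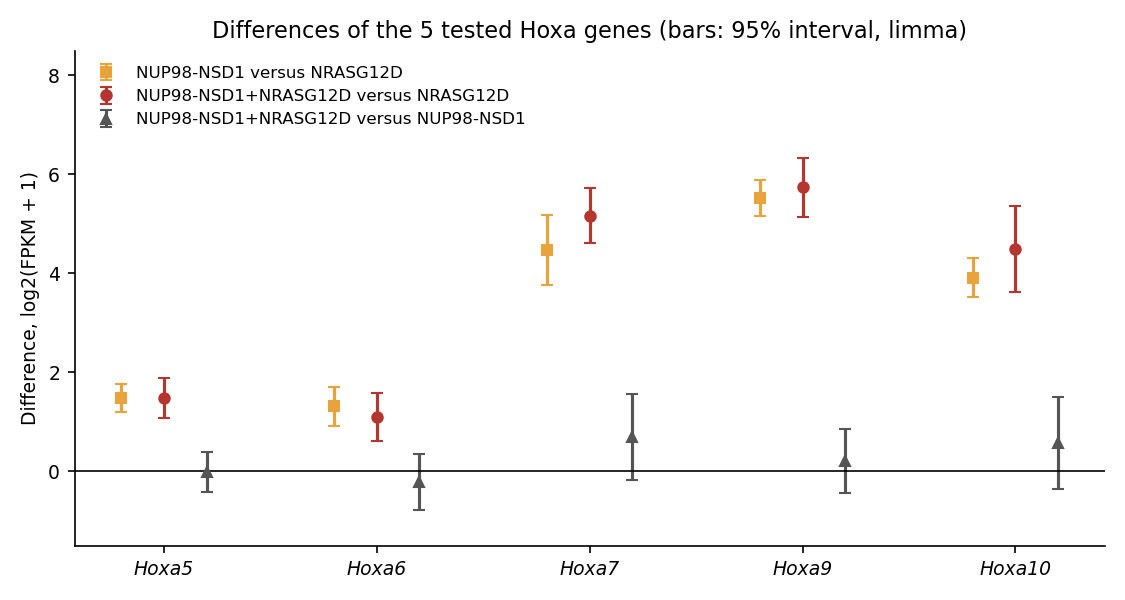
Differences of the 5 tested Hoxa genes on the log2(FPKM + 1) scale for the 3 comparisons, with 95% intervals from limma and 3 libraries per group. Intervals against NRASG12D lie above 0 for all 5 genes, with differences of 3.92 to 5.74 for Hoxa7, Hoxa9 and Hoxa10 and of 1.10 to 1.49 for Hoxa5 and Hoxa6, and all 5 intervals between the fusion groups include 0.

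These differences depended on single libraries. Without replicate 3 of NUP98-NSD1+NRASG12D the difference was 0.16 for Hoxa10, -0.015 for Hoxa9 and 0.58 for Hoxa7, and without its replicate 1 that of Hoxa10 was 0.92. Without its replicate 2 that of Hoxa9 was 0.46, and without NUP98-NSD1 replicate 1 that of Hoxa7 was 0.96. Without NUP98-NSD1 replicate 3, the lowest of its group for Hoxa7, Hoxa9 and Hoxa10, the differences were 0.33 for Hoxa7, 0.053 for Hoxa9 and 0.41 for Hoxa10. None of the 5 genes was called by limma in these fits, and the lowest adjusted p over all 13 alternatives was 0.054, for Hoxa10 with array weights at a difference of 0.93. Of the members not tested, Hoxa3 in every double-transduced library was below every NUP98-NSD1 library, by as little as 0.593 against 0.604 FPKM, and Hoxa4 was above, with 3 to 7 fragments against 0 to 3. Both had the smallest exact p of 0.1, and 31.4% of all tested genes did not overlap between these groups. The exact p of Hoxa2 and Hoxa11 was 0.5 and 0.3.

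The top of the order was shared by the fusion libraries. Hoxa9 was highest, Hoxa7 next and Hoxa10 below it in 6 of 6, and these 3 genes made up 94.3% to 96.3% of the summed Hoxa FPKM. Hoxa5 was above Hoxa6 in 5 of 6, with NUP98-NSD1 replicate 2 the exception, and Hoxa6 above Hoxa3 in 6 of 6. Hoxa5 and Hoxa6 are thus neighbours in the order that are not separated by the spread of the libraries, and so are Hoxa2 and Hoxa4. Hoxa11 was below Hoxa3 in 5 libraries, and in replicate 3 of NUP98-NSD1+NRASG12D it was above Hoxa5, Hoxa6 and Hoxa3. Between the adjacent genes Hoxa7 and Hoxa6 the level dropped, with Hoxa7 at 22.1, 12.4 and 11.6 times the level of Hoxa6 in NUP98-NSD1 and at 29.6, 17.5 and 66.9 times in NUP98-NSD1+NRASG12D.

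The balance of the 3 abundant genes varied more. The share of Hoxa9 was 49.8%, 53.5% and 57.4% in NUP98-NSD1 and 47.9%, 43.8% and 45.6% in NUP98-NSD1+NRASG12D, so that the groups did not overlap. The share of Hoxa7 was 29.5%, 26.1% and 19.5% and then 37.0%, 28.7% and 25.4%, and that of Hoxa10 was 16.7%, 15.6% and 17.4% and then 11.4%, 22.5% and 24.3%. Hoxa10 was steady at 15.6% to 17.4% in the NUP98-NSD1 libraries and ran from below to above that range in the double-transduced ones. The ratio of Hoxa9 to Hoxa10 was accordingly 2.99, 3.44 and 3.30 in NUP98-NSD1 and 4.19, 1.95 and 1.88 in NUP98-NSD1+NRASG12D.

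**Figure D3:**
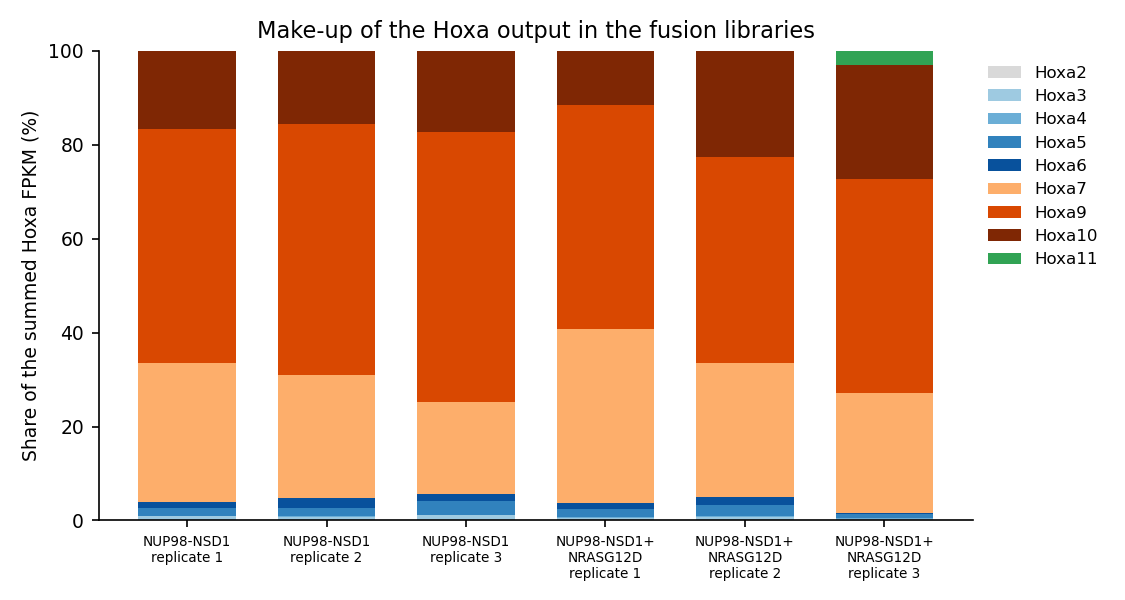
Share of each Hoxa gene in the summed FPKM of the 9 genes, in percent, for the 6 fusion libraries. Hoxa7, Hoxa9 and Hoxa10 together take 94.3% to 96.3% of each bar, and the Hoxa11 band is visible only in NUP98-NSD1+NRASG12D replicate 3, at 2.98%.

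In that library the profile was tilted toward the Hoxa11 end. It had the highest Hoxa9, Hoxa10 and Hoxa11 of all 9 libraries, and among the fusion libraries the lowest Hoxa5, at 1.43 FPKM, and the lowest Hoxa6, at 0.632 FPKM. Hoxa3 at 0.590 FPKM was like its group. Outside the cluster, Hoxb13, the last gene of the Hoxb cluster, was 0.955 FPKM there and 0.0387 FPKM or less in the other 8 libraries. The same library also had the highest Nras and the highest Nup98, at 20.2 FPKM, and their part in its Hoxa levels was not tested.

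Cell type markers also differed between the groups, though not always in the same comparisons as the Hoxa genes. The carboxypeptidase gene Cpa3, 1 of 10 mast cell markers, was listed at 0 in all NRASG12D libraries and at 12564 to 14379 FPKM in NUP98-NSD1, so the mast cell sum is given with and without it. All 10 markers, which include Kit and Fcer1a for a chain of the IgE receptor, summed to 30017 to 32656 FPKM in NRASG12D, to 26832 to 31856 in NUP98-NSD1 and to 739 to 4335 in the double-transduced cells. Without Cpa3 the sums were 13672 to 17477 FPKM in NUP98-NSD1 and 459 to 2514 in the double-transduced cells, so that the 3 groups did not overlap. In NUP98-NSD1 against NRASG12D 3 of the 10 were called higher and 4 lower, with a median difference of -0.51, and the double-transduced cells had 2 higher and 8 lower. Cpa3 was among those called higher in both comparisons, and these counts and the median include it. Of 13493 tested genes, 5689 were called higher and 1347 lower in the first comparison, and 3266 and 1907 in the second.

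The 8 neutrophil precursor markers summed to 29.5 to 38.6 FPKM in NRASG12D, 1732 to 6111 with the fusion alone and 7352 to 17471 with both. All 8 were called higher in NUP98-NSD1 and in NUP98-NSD1+NRASG12D than in NRASG12D, where 42.2% and 24.2% of all tested genes were called higher. Of the 8, Mpo, Elane, Prtn3, S100a8, S100a9 and Ltf passed the filter only through the fusion libraries, so this count is a description. Between the fusion groups 2 of 8 were called higher, where 8.61% of all tested genes were called in either direction. They were S100a8 and S100a9 for subunits of calprotectin, named after their values were seen. Without these 2 genes the fusion groups overlapped, at 1310 to 5588 and 4213 to 13166 FPKM. Mpo, the gene of myeloperoxidase, was 2311, 2554 and 463 FPKM in NUP98-NSD1 and 5140, 1463 and 131 FPKM in NUP98-NSD1+NRASG12D. The 6 monocyte or macrophage markers summed to 44.2 to 59.3, 488 to 914 and 1772 to 4433 FPKM in the 3 groups. All 6 were called higher in each fusion group than in NRASG12D, beside the same shares of all tested genes. Csf1r, Ly6c2 and Mrc1 of this list passed the filter only through the fusion libraries.

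Within NUP98-NSD1, replicate 3 had the lowest Hoxa7, Hoxa9 and Hoxa10 and also the lowest sum of neutrophil precursor markers, at 1732 FPKM against 6111 and 5966, and the highest sum of mast cell markers without Cpa3, at 17477 against 13672 and 14268. Hoxa5 stayed at 1.84 to 1.90 FPKM in these libraries. Within NUP98-NSD1+NRASG12D, replicate 2 had the lowest Hoxa7 and Hoxa9, the highest mast cell sum without Cpa3, at 2514 against 617 and 459, and the lowest neutrophil precursor sum, at 7352 against 15124 and 17471. Without S100a8 and S100a9 that last sum was 4213 FPKM in replicate 2, 13166 in replicate 1 and 4570 in replicate 3. Replicate 3 had the highest monocyte or macrophage sum, at 4433 FPKM, of which Ly6c2 gave 3674, and without Ly6c2 the sum was 427, 1351 and 759 FPKM, highest in replicate 2. The 6 stem or progenitor markers summed to 12.5 FPKM in replicate 3 against 128 and 77.4, to 318 to 352 in NRASG12D and to 414 to 514 in NUP98-NSD1. Most of each sum was Cd34, at 9.53 FPKM in replicate 3 against 117 and 72.9, 307 to 341 in NRASG12D and 400 to 492 in NUP98-NSD1. Of the other markers only Procr went the other way within the double-transduced cells, at 2.77 FPKM in replicate 3 against 0.212 and 1.56. The part of cell composition in the Hoxa differences was not tested.

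**Figure D4:**
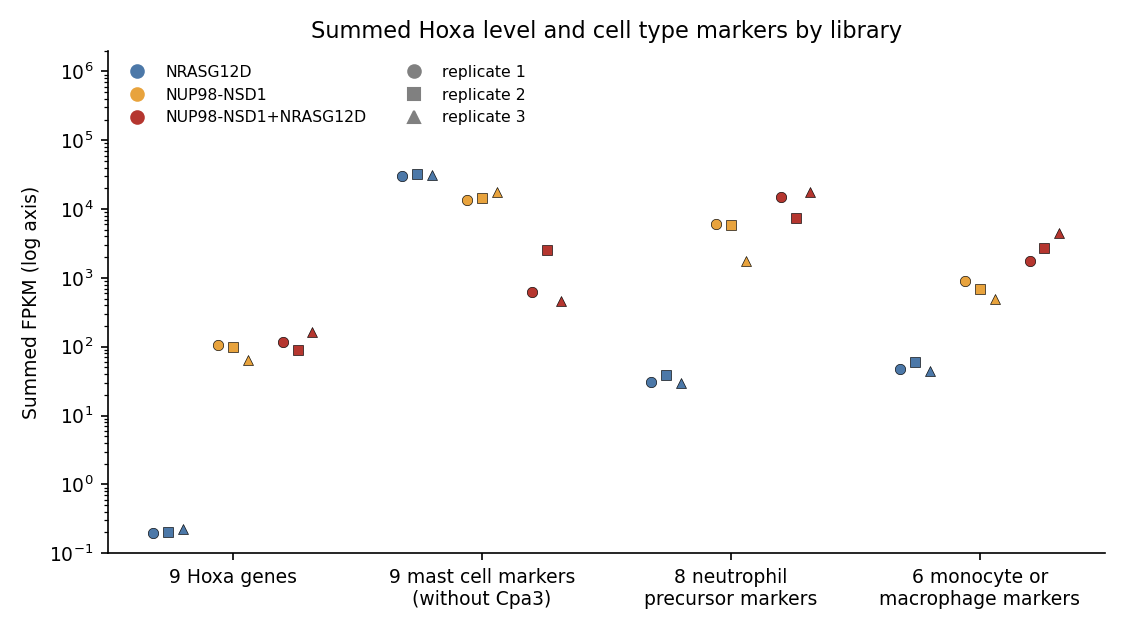
Summed FPKM of the 9 Hoxa genes, of 9 mast cell markers without Cpa3 and of 2 other marker lists in each library, on a log axis, marked by group color and replicate shape. The Hoxa sum is near 0.2 in NRASG12D and 65.1 to 166 with the fusion, and the mast cell sum is 30017 or more in NRASG12D, 13672 to 17477 with the fusion alone and 459 to 2514 with both.

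The lymphoid and the stromal or endothelial markers each had 5 of 6 genes under 1 FPKM in all fusion libraries, the exceptions being Ighm, at 3.68 to 115 FPKM there, and Pdgfrb. The 6 erythroid or megakaryocyte markers summed to 482 to 569 FPKM in NRASG12D and 270 to 317 in NUP98-NSD1, while NUP98-NSD1+NRASG12D had 89.9 to 1238. Itga2b gave 479 to 558 and 205 to 276 FPKM of the first 2 ranges, and Pf4 gave 1157 of the 1238. Of 5 tested markers 3 were called higher and 1 lower in NUP98-NSD1 than in NRASG12D, where 42.2% of all tested genes were called higher. After quantile normalization 2 were higher and 2 lower. The double-transduced cells had 1 higher and 2 lower against NRASG12D.

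Genes next to the cluster were read for whether the pattern stopped at its borders. Of 8 such genes 4 were tested, of which 4 were called higher in NUP98-NSD1 and 3 in NUP98-NSD1+NRASG12D against NRASG12D, and 1 between the fusion groups, where 42.2%, 24.2% and 8.61% of all tested genes were called (the last in either direction). Hotairm1, 1 of the 4, passed the filter only through the fusion libraries. Skap2, an adaptor protein gene 149.9 kb beyond the Hoxa2 side, was 37.3, 42.5 and 32.0 FPKM in NRASG12D, 102, 86.0 and 64.1 in NUP98-NSD1 and 153, 161 and 192 in NUP98-NSD1+NRASG12D. It rose from group to group without overlap, by 1.13 ± 0.18 and 2.15 ± 0.17 on the log2(FPKM + 1) scale against NRASG12D, with adjusted p of 0.0030 and 0.00022 by limma. Between the fusion groups it was 1.02 ± 0.21 higher in NUP98-NSD1+NRASG12D, with an adjusted p of 0.033 by limma, and this call held in 6 of 13 alternatives, with adjusted p from 0.0083 to 0.12. The library with the highest Skap2 level was again replicate 3 of the double-transduced cells.

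Snx10, a sorting nexin gene 571.7 kb away on the same side, was 23.99 to 30.3, 35.5 to 42.4 and 50.1 to 51.8 FPKM in the 3 groups, higher than in NRASG12D by 0.51 ± 0.11 and 0.89 ± 0.14 with adjusted p of 0.0089 and 0.0034 by limma. On the Hoxa11 side, Evx1 was 0.0917 FPKM or less in every library and was not tested. Hibadh, an enzyme gene of valine breakdown 300.4 kb beyond, was higher by 0.49 ± 0.12 in NUP98-NSD1 (adjusted p = 0.012 by limma), and its difference in NUP98-NSD1+NRASG12D was 0.42 ± 0.19 with an adjusted p of 0.12. Over all genes tested, the median difference against NRASG12D was 0.27 and 0.23. After quantile normalization or median-ratio scaling 2 of the 4 tested neighbours were called higher in NUP98-NSD1.

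Of the noncoding neighbours, Hotairm1, a myeloid RNA on the opposite strand just beyond Hoxa2, was listed at 0 in the NRASG12D libraries, at 4.501, 2.18 and 4.82 FPKM in NUP98-NSD1 and at 9.98, 4.24 and 12.8 FPKM in NUP98-NSD1+NRASG12D. It rose by 2.22 ± 0.24 and 3.21 ± 0.35 with adjusted p of 0.00089 and 0.00072 by limma, and the fusion groups overlapped, with a difference of 0.99 ± 0.41 and an adjusted p of 0.20. Other genes cover 23.8% of its exonic bases on the same strand and 19.3% on the opposite strand, so its level is uncertain. Hoxaas3, antisense to Hoxa7 and Hoxa3, was 0.0603 FPKM or less in NRASG12D and 0.547 to 0.627 in NUP98-NSD1, while NUP98-NSD1+NRASG12D had 0.681 to 1.49, and Hoxaas2 was 0.205 FPKM or less throughout. Mir196b, a microRNA gene inside Hoxa9, was listed at 0 in all 9 libraries. Exons of Hoxa9 cover 100% of its bases on the same strand, so this 0 cannot show whether it was expressed. Gm15050, an antisense gene inside the cluster chosen after its values were seen, was listed at 0 in NRASG12D and at 0.495 to 1.13 and 1.07 to 3.09 FPKM in the fusion groups. Its exons share no base with those of another gene.

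**Figure D5:**
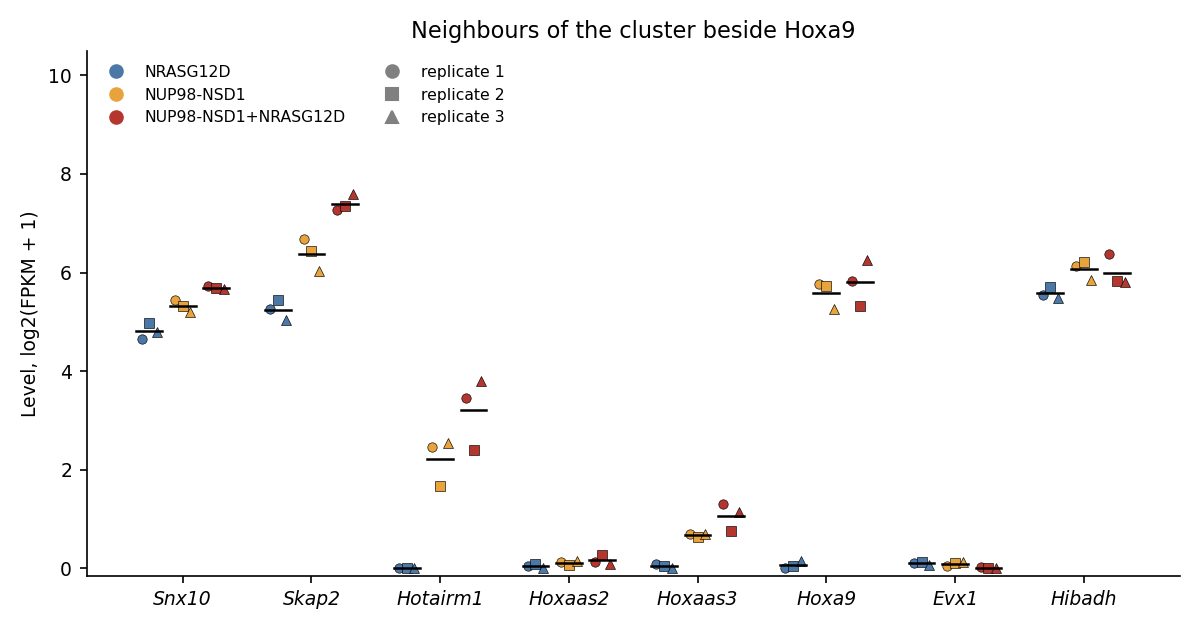
Levels of genes in and around the cluster in genomic order, as log2(FPKM + 1) per library, with Hoxa9 for comparison and black lines at the group means. Skap2 steps up from group to group, Hotairm1 is at 0 in NRASG12D and up to 12.8 FPKM with the fusion, and Evx1 is at the bottom in all libraries.

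The Hoxb cluster on another chromosome served as a comparison. Of 9 Hoxb genes, 3 passed the filter, again only through the fusion libraries, and all 3 were called higher in both groups with the fusion, where 42.2% and 24.2% of all tested genes were. As for the Hoxa genes, this count is a description. They were Hoxb2, by 1.71 and 2.84, Hoxb4, by 0.83 and 0.88, and Hoxb5, by 2.30 and 2.86. Hoxb5, the highest of the 3 in NUP98-NSD1, was 0.0455 FPKM or less in NRASG12D and 2.54 to 5.33 in NUP98-NSD1, while NUP98-NSD1+NRASG12D had 4.64 to 9.91. After quantile normalization 2 of the 3 were called in NUP98-NSD1. Hoxb4 reached 1.70 FPKM at most. Hoxb9 was 0.0938 FPKM or less in every library while Hoxa9 was 37.4 FPKM or more with the fusion.

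Of 9 TALE cofactors, the homeodomain proteins of the MEIS, PBX and PKNOX families that bind DNA together with HOX proteins, 8 were tested. In NUP98-NSD1 against NRASG12D 2 were called higher, among them Pknox2 by 0.90, and 2 lower, Meis3 by -1.12 and Pbx3 by -0.47, with a median of 0.0040 beside 0.27 over all genes. Of all tested genes 42.2% were called higher in this comparison. The call of Pbx3 held in 5 of 13 alternatives, and after quantile normalization 0 were called higher and 4 lower. Against NRASG12D the double-transduced cells had 1 called higher and 4 lower, beside 3266 and 1907 of 13493 tested genes. Against NUP98-NSD1 they had 0 higher and 1 lower, beside 311 and 851 tested genes. That gene was Meis1, named after its values were seen. Meis1 was 46.3, 49.3 and 49.5 FPKM in NRASG12D and 39.4, 40.2 and 49.4 in NUP98-NSD1, and 8.35, 11.5 and 9.02 FPKM in NUP98-NSD1+NRASG12D. Its level was thus high where Hoxa9 was at 0.101 FPKM or less, in NRASG12D, high beside Hoxa9 in NUP98-NSD1, and lower beside Hoxa9 in the double-transduced cells, where it fell by 2.06 ± 0.18 against NUP98-NSD1 (adjusted p = 0.0054 by limma, called in 13 of 13 alternatives). The difference of NUP98-NSD1 from NRASG12D was -0.17 ± 0.10 with an adjusted p of 0.20, and it was called in 4 of 13 alternatives.

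Among 11 known activators of the cluster, 7 passed the filter. In NUP98-NSD1 2 were called higher, Mllt10, a partner of the methyltransferase DOT1L, by 0.72 and Men1, the gene of the KMT2A cofactor menin, by 0.46, with a median of 0.22 over the 7. Of all tested genes 42.2% were called higher there, with a median difference of 0.27. The call of Men1 held in 4 of 13 alternatives. After quantile normalization or median-ratio scaling 0 were called higher and 1 lower. In NUP98-NSD1+NRASG12D 1 was called lower against NRASG12D and none against NUP98-NSD1 by limma, where 2 had an unadjusted p under 0.05. The caudal genes Cdx1, Cdx2 and Cdx4, activators of Hox genes in other leukemias, were 0.0403 FPKM or less in every library.

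All 10 Polycomb genes were tested. In NUP98-NSD1 5 were called higher, among them Cbx2 by 0.86, Eed by 0.67 and the methyltransferase gene Ezh2 by 0.64, and 1 lower, Ezh1 by -0.51, with a median of 0.32 beside 0.27 over all genes, 42.2% of which were called higher. After quantile normalization the counts were 2 higher and 2 lower. In NUP98-NSD1+NRASG12D 1 was called higher and 1 lower against NRASG12D, which became 0 and 4 after quantile normalization, and none was called against NUP98-NSD1 by limma, where 2 had an unadjusted p under 0.05.

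Of 13 genes described as targets of HOXA9 and MEIS1, 7 were called higher and 2 lower in NUP98-NSD1, where 42.2% of all tested genes were called higher, with a median of 0.43 beside 0.27 over all genes. Among the rises were the cytokine receptor gene Flt3 by 1.80 and the transcriptional cofactor gene Lmo2 by 1.66, and the falls were Bcl2, a survival gene, by -0.74 and Id2 by -0.47, the last called in 5 of 13 alternatives. In NUP98-NSD1+NRASG12D 3 were higher and 5 lower against NRASG12D, and 0 higher and 2 lower against NUP98-NSD1, of which neither was called after median-ratio scaling. Of all tested genes 24.2% were called higher against NRASG12D, and 8.61% in either direction against NUP98-NSD1.

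The 5 tested genes whose levels were nearest to those of Hoxa9, by the mean absolute difference in log2(FPKM + 1) over the 9 libraries, were Tifab at 0.43, Tfec at 0.45, Dmkn at 0.46, F10 at 0.49 and Mgst1 at 0.52. All 5 were at 0.211 FPKM or less in NRASG12D, which follows from how they were chosen. Tifab, for example, was 36.0, 22.6 and 19.2 FPKM in NUP98-NSD1 and 72.7, 42.5 and 50.8 in NUP98-NSD1+NRASG12D. None of the 5 lies in the Hoxa cluster. Unlike Hoxa9, Tifab, Tfec, Dmkn and Mgst1 were higher in every double-transduced library than in every NUP98-NSD1 library. Of all tested genes 31.4% did not overlap between these groups, in either direction. F10 overlapped, at 71.7 FPKM in NUP98-NSD1 replicate 1 against 70.9 in NUP98-NSD1+NRASG12D replicate 2. This contrast was drawn after the values were seen.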

How the data were processed

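RNA of 9 libraries was sequenced as paired reads of 50 bp. The authors aligned them to GRCm38.p6 with GENCODE M22 and quantified genes with Cufflinks, and the submitters' processing notes name STAR 2.7.2a and Cufflinks 2.2.1. The deposited values are FPKM, 1 table per library with 55330 lines and 55274 gene identifiers, whose repeated lines were summed here. Depth was estimated from the steps of low values in 3386 single-transcript genes, of which 87.0% to 90.1% were whole within 0.15 fragments. Levels were compared as log2(FPKM + 1) for the 13493 genes reaching 1 FPKM in 3 or more libraries, with limma 3.58.1 in R 4.3.3 (variance trend, the 6 libraries of each pair, no block, threshold 0.05), tested on simulated data, or by exact permutation tests. Groups and replicates came from the labels. Named genes were the 9 members, the neighbours, up to 3 called genes each way per list, and the 5 genes nearest to Hoxa9, apart from those stated. Members and lists were chosen with earlier results of these data known. Annotation was GENCODE M21, with equal coordinates for the 9 genes. Some genes are not reported here. Alternatives changed the pseudocount, filter, scaling or model, or left out 1 library. Python 3.11.15, numpy 2.4.6, pandas 2.3.3 and matplotlib 3.10.9 were used.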

Additional observations from a re-analysis of the deposited data

How the results depend on the processing

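The 5 Hoxa genes were called higher against NRASG12D under all 13 alternatives in both comparisons, and 0 were called between the fusion groups under any. As these 5 passed the filter only through the fusion libraries, this count is a description. Alternatives that kept the filter called 2604 to 6932 of 13493 genes higher for the fusion alone against NRASG12D. For the double-transduced cells the range was 1727 to 4247. Without the filter the number of Hoxa genes called was 7 and 6 of 9. There, 4148 of 40839 and 2026 of 39997 genes were called higher. With a pseudocount of 0.1 the differences of low NRASG12D values grew, to 8.44 and 8.66 for Hoxa9. Between the fusion groups the sign of Hoxa5 changed to 0.15 after quantile normalization, 0.057 after median-ratio scaling, 0.0022 without NUP98-NSD1 replicate 1 and 0.11 without NUP98-NSD1+NRASG12D replicate 3, that of Hoxa6 to 0.028 after quantile normalization, and that of Hoxa9 to -0.015 without NUP98-NSD1+NRASG12D replicate 3. Leaving out 1 library gave -0.073 to 0.11 for Hoxa5, 0.33 to 0.96 for Hoxa7, -0.015 to 0.46 for Hoxa9 and 0.16 to 0.92 for Hoxa10, and array weights gave 0.93 for Hoxa10 (adjusted p = 0.054 by limma). The number of all genes called for NUP98-NSD1 against NRASG12D was 3065 with all 9 libraries in one fit, and 4736 to 7948 without 1 library. For NUP98-NSD1+NRASG12D against NRASG12D it was 2941 to 6327 without 1 library. Between the fusion groups it was 1162, against 152 without the filter, 2251 in one fit of 9 libraries, 3500 with array weights and 283 to 2509 without 1 library. The cause was not tested. Deviations of same-numbered libraries from their group means had correlations from -0.18 to 0.16. With 3 libraries per group this cannot show whether such libraries share a donor or a transduction. With a replicate block the numbers of all genes called were 6864, 4531 and 801, and the call of no Hoxa gene changed. Depth limits Hoxa2, Hoxa4 and Hoxa6, which rested on at most 41 fragments. The mean summed Hoxa FPKM was 80.0 and 119 in the fusion groups after median-ratio scaling, against 90.0 and 124 as deposited, and 0.236 against 0.208 in NRASG12D.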
